A study of Homo sapiens with 12 samples.

Results

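GDF15 (growth differentiation factor 15, ENSG00000130513) is 1 of the 58735 genes in the count and FPKM tables of this series. It was chosen because it had the largest rise after H2O2 in both genotypes, among genes with a mean FPKM above 1 before and after treatment. The cells were HLE-B3, a human lens epithelial line that has been immortalized, grown in the same serum-containing medium in every group. There were 4 groups of 3 biological replicates: WT cells untreated (0 h), WT cells given 200 μM H2O2 for 12 h, ATG7 KO cells untreated (0 h) and ATG7 KO cells given 200 μM H2O2 for 12 h. ATG7 KO cells carry a CRISPR disruption of ATG7, whose product is needed for autophagosome formation. They were picked as single clones, and which clone was sequenced is not given in the labels. Loss of ATG7 and other differences between such a clone and WT cells therefore cannot be told apart. The p values between genotypes rest on the spread between replicate libraries, which may not hold the spread between clones. With untreated cells harvested at 0 h, H2O2 and 12 h in culture cannot be told apart.

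GDF15 is a secreted, divergent member of the TGF-beta superfamily. Cells release it under oxidative, DNA damage, mitochondrial and nutrient stress, and its transcription is known to respond to the ATF4 and CHOP branch of the integrated stress response, and to EGR1 and KLF4. It is made as a proprotein that furin-like convertases cleave, and the mature dimer acts on the hindbrain through the receptor GFRAL and the co-receptor RET, where it lowers food intake. In other tissues it is widely used as a marker of cell stress.

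By the deposited table GDF15 lies on chr19:18374731-18389176 of GRCh38, plus strand. In GENCODE release 29 the gene has 5 transcripts. The main coding transcript, ENST00000252809.3, has 2 exons at chr19:18386158-18386466 and chr19:18388286-18389176, which together hold 1200 bases and code for 308 amino acids. The exons are separated by an intron of 1819 bases. The other 4 transcripts extend upstream or start in the intron, and the union of all exons is 2087 bases, the length by which the authors divided. The main transcript covers 57.5% of that length, so if the reads come from it alone the FPKM values understate its level per base by the same share in every library. Short windows of the promoter region are shown for a TATA box and a GC box, elements that GDF15 shares with other promoters. They come from the RefSeq promoter window of 250 bases before to 50 after the start (GRCh38.p14). Capitals mark the motif.
TATA box, chr19:18386117-18386146, plus strand: aagtccggggacTATAAAggccggtccggc
GC box, chr19:18386076-18386105, plus strand: gcagggggaggaGGGCGGgactgagcaggc
The TATA box (TATAAA) stood 29 to 24 bases before the RefSeq start, and 12% of all 27305 promoter windows held one on either strand. The GC box (GGGCGG), bound by SP1, was found at 2 places, and 44.6% of windows held it. On either strand of the window no match was found to the AP-1 motif TGANTCA (7.76% of windows), the C/EBP-ATF element TGATGNAA (3.67%), the E-box CACGTG (7.43%), the antioxidant element TGACNNNGC (13.6%) or the EGR1 motif GCGGGGGCG (5.02%). A match is a description of letters and not a measured site.

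The libraries held between 15602183 and 17659496 reads on genes. ATG7 counts were 346 to 433 in untreated WT cells, 260 to 300 in treated WT cells, 539 to 561 in untreated ATG7 KO cells and 307 to 360 in treated ATG7 KO cells. Counts over the whole gene do not show an edited base, so they do not check the knockout. One library, untreated ATG7 KO replicate 1, had a mean correlation of 0.9741 with the other replicates of its group, against 0.9829 to 0.9915 for the other 11. Of 8 lens epithelium markers only 2 or 3 had a mean above 1 FPKM in a group, GJA1 foremost, while FOXE3, CRYAA and CDH1 were at or near 0. Of 7 lens fibre markers, 0 or 1 was above 1 FPKM.

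GDF15 mRNA was scarce in untreated cells of both genotypes. In untreated WT cells 72, 58 and 39 reads were counted, which is 1.98, 1.51 and 1.05 FPKM. In untreated ATG7 KO cells 45, 63 and 47 reads were counted, or 1.31, 1.69 and 1.22 FPKM. The genotypes overlapped, and GDF15 ranked between 10418 and 12294 among all genes by FPKM in these 6 libraries.

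After 12 h of H2O2, GDF15 was among the most abundant mRNAs. Treated WT cells had 7860, 8399 and 8544 reads, which is 222, 261 and 238 FPKM. Treated ATG7 KO cells had 16974, 15952 and 16811 reads, or 475, 465 and 464 FPKM. Every treated library was above every untreated library, and every treated ATG7 KO library was above every treated WT library. By FPKM the gene ranked 91 to 122 in treated WT cells and 34 to 36 in treated ATG7 KO cells. In CPM, the count scaled to the library total, it stood at 461 to 538 in treated WT cells and 954 to 982 in treated ATG7 KO cells, against at most 4.24 in untreated cells. In bulk RNA, more GDF15 per cell and more cells that express it cannot be told apart.

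**Figure D1:**
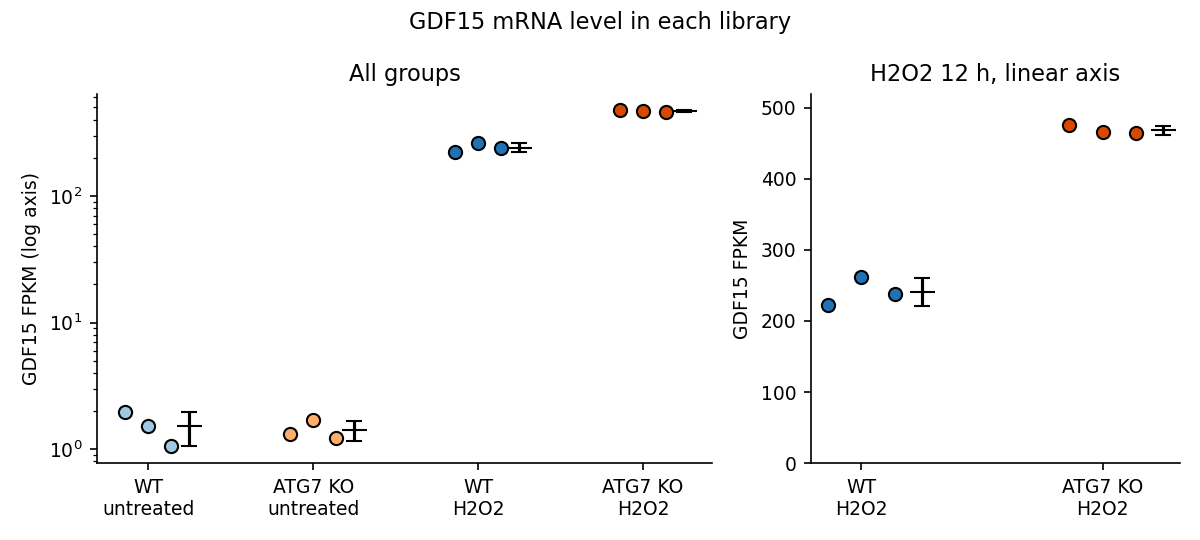
GDF15 mRNA in FPKM, 1 point per library and 3 libraries per group, on a log axis for all groups (left) and on a linear axis from 0 for the treated groups (right); the bar beside the points is the mean ± SD. The untreated groups overlap between 1.05 and 1.98 FPKM, treated WT libraries lie between 222 and 261 FPKM, and treated ATG7 KO libraries lie above them at 464 to 475 FPKM.

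The group means were 1.51 ± 0.464 FPKM in untreated WT, 1.41 ± 0.254 in untreated ATG7 KO, 240.5 ± 19.8 in treated WT and 468.2 ± 5.92 in treated ATG7 KO cells (SD, n = 3). In order of level, treated ATG7 KO came first, then treated WT, and the untreated groups came last without a difference between them beyond their spread. The H2O2 responses chose the gene, so they are described without a test. The log2 fold change was 7.30 (SE 0.112) in WT cells, which is 158-fold, and 8.37 (SE 0.171) in ATG7 KO cells, which is 331-fold. Each SE was calculated back from the F statistic of the fit and is approximate. The pooled SD of log2 CPM within groups was 0.322 for the WT response and 0.17 for the ATG7 KO response. In WT cells 41 of 15913 genes tested had a larger fitted log2 fold change and in ATG7 KO cells 6 of 15475 did, but 0 of these had a mean above 1 FPKM both before and after treatment. The response of ATG7 KO cells minus that of WT cells was 1.07 on the log2 scale (SE 0.238). It is made of the same responses and was not tested. Without untreated ATG7 KO replicate 1, the library that stood apart, the response of ATG7 KO cells was 8.32 and the difference 1.03. With each library left out in turn, the WT response ran from 7.09 to 7.52 and the ATG7 KO response from 8.27 to 8.52. The difference ran from 0.84 without untreated WT replicate 1 to 1.28 without untreated WT replicate 3.

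The comparisons of genotypes were not used to choose GDF15 and were tested by quasi-likelihood in edgeR, with p adjusted by Benjamini-Hochberg over all genes. A gene was called changed at an adjusted p under 0.01 and an absolute log2 fold change above 1, with a mean above 1 FPKM in at least 1 group. Without H2O2, the log2 fold change of ATG7 KO over WT cells was -0.11 (SE 0.275, 95% interval -0.75 to 0.54, adjusted p = 0.812). The interval runs from 0.594-fold to 1.45-fold, so a difference of moderate size was not detectable at 39 to 72 reads per library. Across all genes, 7.7% passed the adjusted p alone in this comparison and 3.5% passed all thresholds. With H2O2, GDF15 was 1.94-fold higher in ATG7 KO than in WT cells (95% interval 1.83 to 2.05), a log2 fold change of 0.95 (SE 0.0408, adjusted p = 2.83e-16) seen in 3 of 3 against 3 of 3 libraries. This was past the adjusted p but just under the fold threshold, so by the combined thresholds it was not called. An adjusted p under 0.01 was common here, since 55.6% of 15909 genes had one and 27.7% had one in the direction of higher in ATG7 KO cells. All thresholds were passed by 7.46% of genes, and 5.57% of genes had a larger increase in ATG7 KO cells than GDF15. The log2 fold change was past 1 when gene length was corrected for (1.13) or when treated WT replicate 2, the highest WT library, was left out (1.01).

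Genes known to be induced by DNA damage were considered next. Of 20 genes in the list, 18 rose in WT cells after H2O2 and 0 fell, and in ATG7 KO cells 19 rose and 0 fell. Over all genes tested, 7.3% rose and 5.24% fell in WT cells, and 6.09% rose and 5.11% fell in ATG7 KO cells. The median log2 fold change of the list was 2.76 in WT and 2.86 in ATG7 KO cells, beside medians of -0.01 and -0.03 over all genes. CDKN1A, which encodes the cyclin-dependent kinase inhibitor p21, was at 50.3, 49.9 and 48.3 FPKM in untreated WT and 1521, 1676 and 1453 FPKM in treated WT cells. The ATG7 KO libraries had 51.1, 46.3 and 46.1 FPKM untreated and 1713, 1694 and 1662 FPKM treated. Its log2 fold changes were 4.96 (SE 0.0492, adjusted p = 1.46e-49) and 5.14 (SE 0.12, adjusted p = 2.58e-06). MDM2, a ubiquitin ligase, had 5.63 to 6.16 FPKM in untreated WT and 64.1 to 70.3 FPKM in treated WT cells. MDM2 in ATG7 KO cells went from between 4.65 and 5.03 FPKM to between 96.9 and 103 FPKM. BTG2, an antiproliferative gene, rose by 6.05 in WT and 6.60 in ATG7 KO cells on the log2 scale, the nearest to GDF15 in the list. XPC, a DNA damage recognition factor, passed in ATG7 KO cells (1.47, SE 0.255, adjusted p = 0.00372; 0.48 in WT cells), a call lost without ATG7 KO untreated replicate 3 or any 1 of the treated replicates (highest adjusted p 0.0185). CCNG1, which encodes cyclin G1, passed in neither (0.81 in WT, 0.39 in ATG7 KO).

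**Figure D2:**
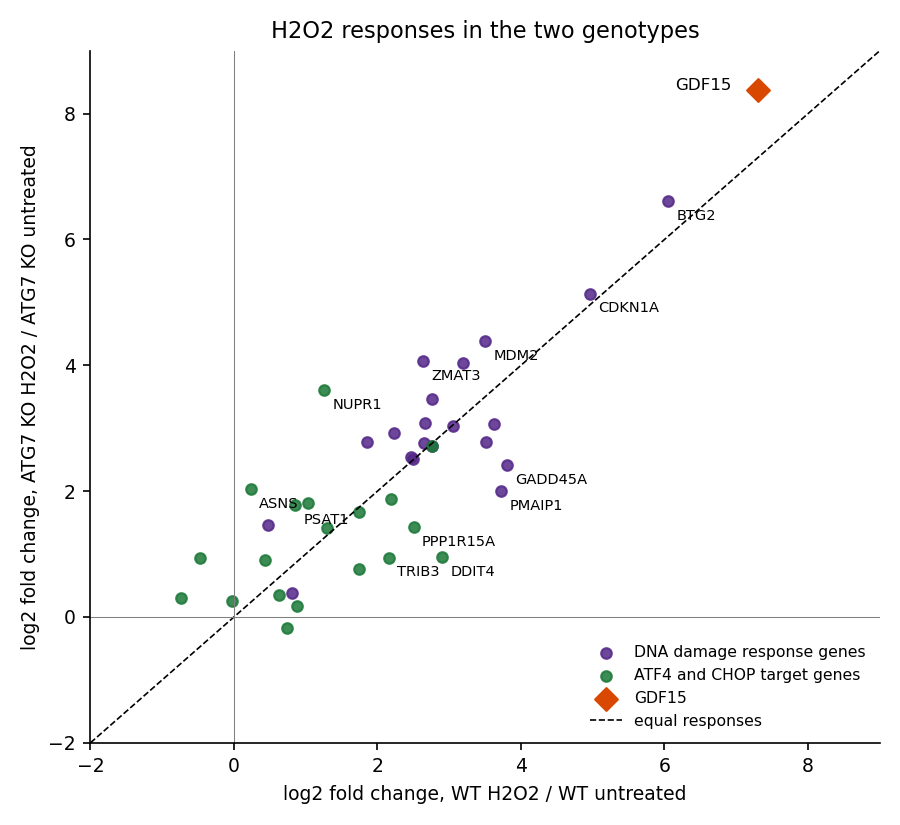
Log2 fold change after 12 h of H2O2 in WT cells (horizontal) and in ATG7 KO cells (vertical), 1 point per gene, for the DNA damage response list, the ATF4 and CHOP target list (SESN2 is in both) and GDF15; the dashed line marks equal responses. GDF15 lies at 7.30 and 8.37, above BTG2 at 6.05 and 6.60 and CDKN1A at 4.96 and 5.14, while DDIT4 and TRIB3 lie below the line and NUPR1 above it.

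With H2O2, the DNA damage response genes had values on both sides of 0 between genotypes, and calls were near the share over all genes. Their median log2 fold change of ATG7 KO over WT cells was 0.13, beside -0.00 over all genes. In this list 0 of 20 were called higher and 1 of 20 lower, beside 3.03% and 4.43% of all genes. By adjusted p alone, 11 were higher and 5 lower, beside 27.7% and 27.9%. The values ran from -1.94 for GADD45A to 0.95, which is level with GDF15. RRM2B, a ribonucleotide reductase subunit, had 37.0, 40.5 and 41.2 FPKM in treated WT and 71.7, 72.1 and 70.9 FPKM in treated ATG7 KO cells (log2 fold change 0.85). MDM2 was higher by 0.59. GADD45A, a growth arrest gene, had 804, 850 and 665 FPKM in WT and 205, 204 and 197 FPKM in ATG7 KO cells (log2 fold change -1.94, SE 0.106, adjusted p = 6.72e-05). PMAIP1, which encodes the pro-apoptotic NOXA, was also at a lower level (-0.96), short of the fold threshold. Without H2O2, only ZMAT3, an RNA-binding protein, was called among these 20 genes (-1.07, SE 0.154, adjusted p = 0.00415), and that call was lost with any 1 of the 6 libraries left out (-1.16 to -0.92, highest adjusted p 0.0282).

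Genes downstream of ATF4 and CHOP, the factors of the integrated stress response, were examined in the same way. Of 20 listed genes 19 were tested. In WT cells 10 rose and 0 fell after H2O2 (median log2 fold change 1.04), and in ATG7 KO cells 8 rose and 0 fell (median 0.95). Over all genes tested, 7.3% rose and 5.24% fell in WT cells, and 6.09% rose and 5.11% fell in ATG7 KO cells. The medians over all genes were -0.01 and -0.03. By adjusted p alone, in either direction, 17 of 19 passed in WT and 14 of 19 in ATG7 KO cells, beside 61% and 26% of all genes. Among the 17 in WT cells, VLDLR (-0.47) and CTH (-0.74) fell. With H2O2, 8 of 19 were lower in ATG7 KO than in WT cells and 0 were higher, beside 4.43% and 3.03% over all genes, and the list median was -0.93. By adjusted p alone 15 were lower and 1 was higher, beside 27.9% and 27.7% of all genes. The 8 genes were TRIB3, CHAC1, ASNS, DDIT4, PPP1R15A, NUPR1, CEBPG and ADM2. PPP1R15A, which encodes the eIF2alpha phosphatase subunit GADD34, had 159, 154 and 139 FPKM in treated WT and 69.0, 71.3 and 71.5 FPKM in treated ATG7 KO cells (log2 fold change -1.10, SE 0.0407, adjusted p = 1.95e-20). DDIT4, an inhibitor of mTORC1 signalling, had 21.4, 24.9 and 18.4 FPKM in WT and 5.25, 5.68 and 5.13 FPKM in ATG7 KO cells (log2 fold change -2.01). TRIB3, a pseudokinase induced by CHOP, had 34.4, 36.8 and 26.9 FPKM in WT and 9.85, 9.02 and 10.8 FPKM in ATG7 KO cells (-1.73). Every treated ATG7 KO library was below every treated WT library for these 3 genes, opposite to GDF15. Without H2O2, 5 of 19 were already lower in ATG7 KO cells and 0 higher, beside 1.23% and 2.27% of all genes, namely CHAC1, PSAT1, VLDLR, NUPR1 and ADM2, with log2 fold changes from -4.01 for NUPR1 to -1.69 for CHAC1. The call of CHAC1 was lost in 5 of 6 fits with 1 library left out (highest adjusted p 0.0251), and without ATG7 KO replicate 1 the list had 7 calls.

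Factors described as acting on GDF15 were then compared at the mRNA level. In WT cells 7 of 16 rose after H2O2 and 0 fell, beside 7.3% and 5.24% of all genes. They were DDIT3, ATF3, EGR1, KLF4, CEBPB, JUN and XBP1. In ATG7 KO cells ATF3 and JUN rose and 0 fell, beside 6.09% and 5.11%. EGR1, an immediate early zinc finger factor, went from 10.7, 9.15 and 8.61 FPKM to 59.9, 51.7 and 56.5 FPKM in WT cells. EGR1 in ATG7 KO cells was at 5.53, 6.47 and 7.16 FPKM untreated and at 6.35, 6.83 and 7.51 FPKM treated, groups that overlapped. ATF3, a stress-induced bZIP factor, rose in both, by 4.28 in WT and 4.36 in ATG7 KO cells on the log2 scale. ATF4 had 207, 208 and 189 FPKM in treated WT and 129, 124 and 133 FPKM in treated ATG7 KO cells, and its log2 fold change after H2O2 was 0.91 in WT and 0.13 in ATG7 KO cells. DDIT3, which encodes CHOP, had 11.2, 9.34 and 10.9 FPKM in treated WT and 5.32, 3.96 and 3.88 FPKM in treated ATG7 KO cells. It rose in WT cells (1.66, SE 0.135, adjusted p = 3.63e-15), and in ATG7 KO cells the log2 fold change was 0.48 (SE 0.365, adjusted p = 0.326).

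With H2O2, 5 of 16 factors were lower in ATG7 KO than in WT cells and 0 were higher, beside 4.43% and 3.03% of all genes. The log2 fold changes were -3.03 for EGR1, -2.73 for KLF4, -1.27 for DDIT3, -1.23 for XBP1 and -1.18 for ATF3. ATF4 (-0.66, SE 0.038, adjusted p = 7.05e-16) did not pass the fold threshold. The median of the list was -0.54, beside -0.00 over all genes. In the list 0 of 16 had a log2 fold change as high as that of GDF15. Over all genes 5.57% had a higher one, so a count of 0 in 16 is near that share. The highest was TFEB at 0.51, a regulator of lysosomal genes. Without H2O2, CEBPB was higher in ATG7 KO cells (1.12) and ATF3 lower (-1.25), and 0 of the other 14 passed. Leaving out 1 library ended the call of CEBPB in 5 of 6 cases (0.91 to 1.22) and that of ATF3 in 4 of 6 cases (-1.44 to -1.07). The interaction test of the responses called 20 of the 78 genes tested in the 5 lists different between genotypes, where it called 5.17% of all genes. Of the 20, 15 had a smaller or negative and 5 a larger value in ATG7 KO cells. The comparison of genotypes with H2O2 and the responses share the treated libraries, so their values stand side by side and do not bear on each other independently. These values are mRNA levels, and the amounts of the proteins were not measured here.

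**Figure D3:**
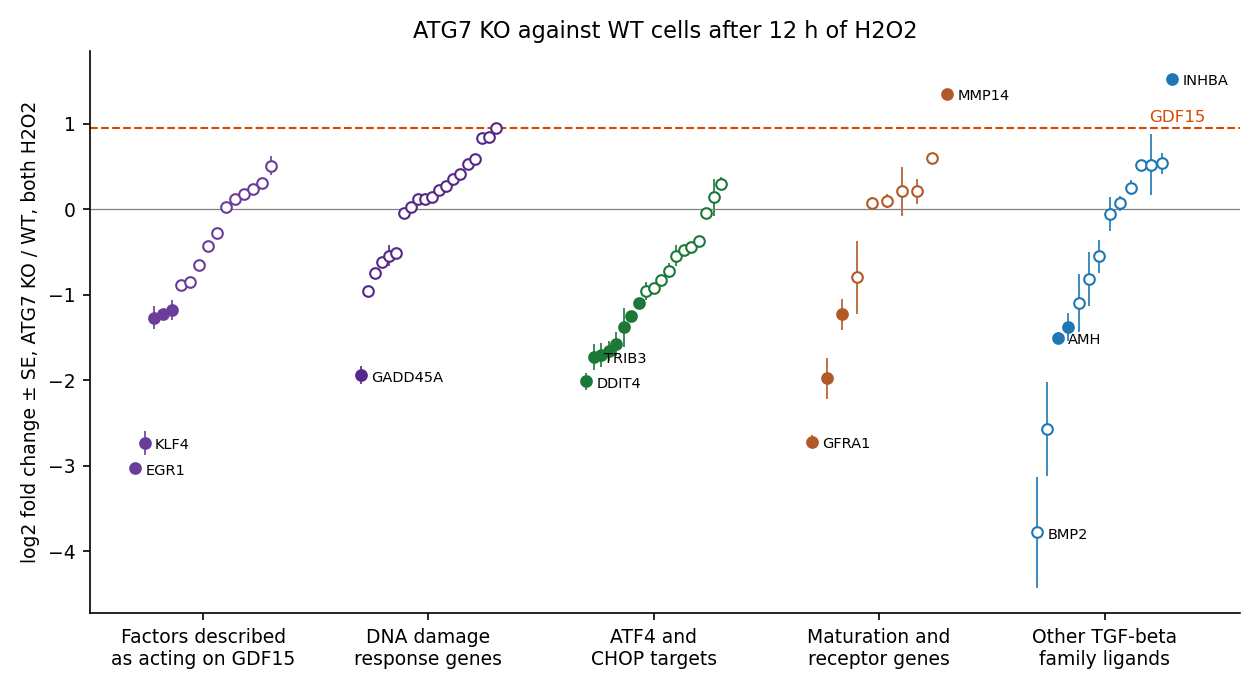
Log2 fold change of H2O2-treated ATG7 KO over H2O2-treated WT cells ± SE, 1 point per gene tested, in 5 gene lists; filled points passed the adjusted p, fold and FPKM thresholds, and the dashed line marks GDF15 at 0.95. In the factor list and the ATF4 and CHOP list 0 genes reach the line, 1 gene of the DNA damage response list lies on it, and MMP14 (1.35) and INHBA (1.52) lie above it. Of all genes tested, 5.57% lie above the line.

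Genes for processing and receiving GDF15 were at very different levels. FURIN, the convertase that cleaves the proprotein, had 23.0, 24.3 and 23.4 FPKM in untreated WT and 24.0, 24.8 and 23.9 FPKM in treated WT cells. FURIN in ATG7 KO cells had 28.1, 35.7 and 36.5 FPKM untreated and 35.7, 37.2 and 38.0 FPKM treated. Its log2 fold change after H2O2 was 0.03 in WT (adjusted p = 0.555) and 0.14 in ATG7 KO cells (adjusted p = 0.396). With H2O2 it was higher in ATG7 KO cells by 0.60 (SE 0.0411, adjusted p = 3.59e-14), short of the fold threshold. MMP14, a membrane-bound matrix metalloproteinase reported to cleave GFRAL, was higher in ATG7 KO cells without H2O2 (1.57) and with it (1.35). After H2O2 it rose in WT cells (1.14). In ATG7 KO cells its log2 fold change was 0.92 (SE 0.0946, adjusted p = 0.000382), short of the fold threshold alone.

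Receptor mRNA was nearly absent. GFRAL, the GDF15 receptor, had 1 read in 1 treated WT library, 2 reads in 1 treated ATG7 KO library and 0 reads in every other library. A count of 0 allows up to 3 reads, for counting error alone. RET had 0 to 5 reads per untreated library and 7 to 22 reads per treated library, at most 0.188 FPKM. GFRA1, the GDNF co-receptor, was present and fell, from 17.4, 16.6 and 17.6 FPKM to 6.39, 6.27 and 6.01 FPKM in WT cells (log2 fold change -1.47), and it was lower in ATG7 KO cells without H2O2 (-2.58) and with it (-2.72). GDNF, which signals through GFRA1 and RET, rose in WT cells (3.46, SE 0.11) and in ATG7 KO cells (2.37, SE 0.128). Of this list of 17 genes, 9 were tested in each H2O2 response. In WT cells 2 rose and 1 fell, beside 7.3% and 5.24% of all genes. In ATG7 KO cells 1 rose and 3 fell, beside 6.09% and 5.11%, the last being GFRA1 and the GDNF family ligands NRTN and ARTN. Without any 1 of the treated ATG7 KO replicates the calls of GFRA1 and NRTN were lost (highest adjusted p 0.0172 and 0.0305). Without H2O2, 3 of 9 tested were higher in ATG7 KO than in WT cells and 1 lower, beside 2.27% and 1.23% of all genes. They were MMP14, ARTN (1.44), GDNF (1.18) and, lower, GFRA1. The GDNF call was lost in 5 of 6 fits with 1 library left out. With H2O2, 1 of 10 was higher and 3 lower, beside 3.03% and 4.43%. They were MMP14 and, lower, GFRA1, NRTN (-1.98) and PSPN (-1.23), the last call lost without treated ATG7 KO replicate 1.

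Among the other TGF-beta superfamily ligands, 23 of 32 had a mean at or under 1 FPKM in every group. The other 9 were TGFB1, INHBA, AMH, TGFB2, GDF11, INHBB, TGFB3, BMP4 and BMP8B. TGFB1 was the most abundant ligand before treatment, with group means of 78.0 and 101.5 FPKM, and it was at 87.2 FPKM in treated WT and 125.2 FPKM in treated ATG7 KO cells, below GDF15 in both. INHBA, which encodes the activin A subunit, had the largest rise of these 9 in WT cells. It went from 1.85, 2.12 and 1.92 FPKM to 31.4, 31.9 and 30.5 FPKM in WT cells (log2 fold change 3.99, SE 0.0593, adjusted p = 5.6e-44). In ATG7 KO cells it went from 14.8, 16.5 and 17.8 FPKM to 90.7, 91.7 and 88.2 FPKM (2.46, SE 0.112, adjusted p = 2.14e-05). Unlike GDF15, INHBA was already higher in ATG7 KO cells without H2O2 (3.06, SE 0.122, adjusted p = 6.71e-05), and with H2O2 it was higher by 1.52. INHBB, another activin subunit, rose in both genotypes (2.21 and 3.84), TGFB2 fell in WT cells (-1.13) and TGFB3 rose in ATG7 KO cells (1.17), a call lost in 5 of 6 fits with 1 library left out (0.98 to 1.34, highest adjusted p 0.0196). In all, 2 of 13 ligands tested rose and 1 fell in WT cells, beside 7.3% and 5.24% of all genes, and 3 of 12 rose and 0 fell in ATG7 KO cells, beside 6.09% and 5.11%. Without H2O2, 1 of 9 tested was higher in ATG7 KO than in WT cells and 1 lower, beside 2.27% and 1.23% of all genes. With H2O2, 1 of 14 was higher and 2 were lower, beside 3.03% and 4.43%.

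The 3 next largest rises after GDF15, among called genes with a mean above 1 FPKM before and after and no overlap, were BTG2, RRAD and CDKN1A in WT cells and CDKN1A, MDM2 and ATF3 in ATG7 KO cells. They were chosen on these responses and are described only. RRAD, a small GTPase of the Rad and Gem family, had log2 fold changes of 5.76 in WT and 3.32 in ATG7 KO cells. Among genes so limited, GDF15 stood at 7.30 against 6.05 for the next gene in WT cells and at 8.37 against 5.14 in ATG7 KO cells. BTG2 rose by 6.60 in ATG7 KO cells. It was left out there because its untreated mean was 0.458 FPKM, under the limit of 1 FPKM.

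The genes whose levels over the 12 libraries were most like GDF15 were RGL1, MDM2, AEN, FBXO22, CDKN1A, CDH3, TMEM64 and C9orf72, with Pearson r of TMM-scaled log2 CPM from 0.9984 for RGL1 to 0.9954 for C9orf72 among 13306 genes. The libraries share their treatment groups, so r mostly reflects the step between untreated and treated cells. MDM2, AEN and CDKN1A are in the DNA damage response list. The size of the step differed widely, with RGL1 at a log2 fold change of 1.66 in WT and 1.86 in ATG7 KO cells and FBXO22 at 1.17 and 1.5. Their log2 fold changes of ATG7 KO over WT cells with H2O2 ran from 0.12 for CDKN1A to 0.59 for MDM2. The choice by r used these libraries too, so the shared direction is a description. Without H2O2 their log2 fold changes of ATG7 KO over WT cells lay between -0.28 and 0.01.

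The genes around GDF15 were then examined. Within 250 kb 37 other genes were considered, of which 20 were tested in each response. In WT cells 2 rose and 1 fell, beside 7.3% and 5.24% of all genes, and in ATG7 KO cells 3 rose and 0 fell, beside 6.09% and 5.11%. These counts and the medians below include MIR3189, which lies in the GDF15 intron and rose in both responses. Its reads cannot be told apart from unspliced GDF15 RNA. ELL, which encodes a transcription elongation factor, rose in both genotypes (1.48 and 1.10), in ATG7 KO cells by 0.97 without untreated replicate 1. PGPEP1, a peptidase gene upstream of GDF15, fell in WT cells (-1.32). PDE4C, which encodes a cyclic AMP phosphodiesterase, had 2, 7 and 10 reads in untreated WT and 56, 57 and 63 reads in treated WT cells. In ATG7 KO cells it had 1, 5 and 0 reads untreated and 267, 256 and 309 reads treated, and with H2O2 it was the only neighbour called different between genotypes (2.19). IQCN was lower in treated ATG7 KO cells by -2.84 (SE 0.2, adjusted p = 8.13e-14). It was not called because its means were 0.893 FPKM in treated WT and 0.124 FPKM in treated ATG7 KO cells. The median log2 fold change of the neighbours was 0.33 in WT and -0.08 in ATG7 KO cells.

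**Figure D4:**
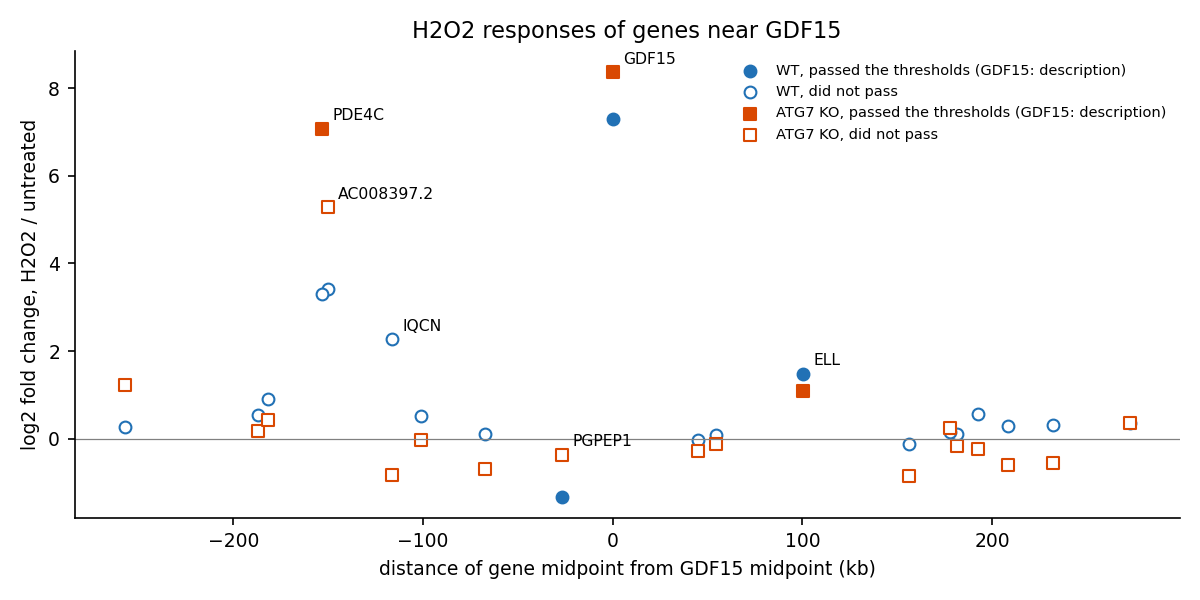
Log2 fold change after 12 h of H2O2 in WT (circles) and ATG7 KO cells (squares) for genes within 250 kb of GDF15 that were tested, by the distance in kb between gene midpoints; filled symbols passed the thresholds, and MIR3189, which lies inside GDF15, is left out. GDF15 stands at 7.30 and 8.37, and PDE4C at 3.29 and 7.07 from few reads. AC008397.2 stands at 3.41 and 5.28 and IQCN at 2.27 and -0.82, both under 1 FPKM, and most other genes lie near 0.

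MIR3189, the gene called in both responses besides ELL, lies in the GDF15 intron, at chr19:18386562-18386634. It encodes a miRNA hairpin of 73 bases. The mature sequences are shown because their host intron is transcribed with GDF15, with the seed (bases 2 to 8) in capitals, from RefSeq on GRCh38.p14.
hsa-miR-3189-5p: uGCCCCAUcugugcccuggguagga
hsa-miR-3189-3p: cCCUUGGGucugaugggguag
The arms have different seeds. Reads over the hairpin were 0, 0 and 1 in untreated WT, 14, 28 and 12 in treated WT, 1, 0 and 0 in untreated ATG7 KO and 33, 17 and 32 in treated ATG7 KO cells. Treated and untreated libraries did not overlap, while the treated genotypes did. These libraries were not made for small RNA, so such reads cannot be told apart from unspliced GDF15 RNA, and the mature miRNAs were not measured.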

How the data were processed

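The 12 libraries were made from total RNA of HLE-B3 cells, with 3 biological replicates for each of 4 groups. The deposited raw counts are whole reads per gene, which the authors counted without normalization. The deposited FPKM values were computed by the authors from these counts by gene length and library size. For GDF15 the FPKM equalled the count divided by length and total, times a factor of 0.949 to 1.02 depending on the library. Other genes were not compared in this way. The submitters' processing notes name HISAT2 2.0.5 and featureCounts 1.5.0-p3. The strand setting and the handling of multimapped reads are not given in the sources used here, so overlapping genes may share reads.

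Samples were grouped from their labels. Library totals were 15602183 to 17659496 reads (median 17205174). Counts were tested with edgeR 4.0.16 (R 4.3.3), with filterByExpr at a minimum count of 10, TMM scaling and a robust quasi-likelihood fit on the 6 libraries of each comparison. The difference of responses was fitted as an interaction in all 12 libraries. P values were adjusted by Benjamini-Hochberg over all genes tested. FPKM served for levels. The test was tried on simulated data before use. GDF15 and the 5 gene lists (maturation and receptor genes, factors, DNA damage response genes, ATF4 and CHOP targets, ligands), written from general knowledge, and the lens marker lists were chosen with earlier results of these data known.

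Genes could be named if they passed the thresholds in a list, or were ATF4, DDIT3, EGR1, GFRAL, RET, FURIN or a ligand above 1 FPKM. Not every gene that passed is named, and some that did not pass are named for their values. Also named were the 3 next largest rises, the 8 genes most like GDF15 by Pearson r and genes within 250 kb. Alternatives were DESeq2 1.42.0, RLE and upper quartile scaling, no filter, at least 10 counts in every library, all 12 libraries in 1 fit, a block for the replicate number, leave-one-out fits, limma 3.58.1 on log2 FPKM plus 1 or plus 0.1, a gene length offset (lowess span 0.3), and no fold threshold. Some items of the lists, the motifs and the neighbourhood are not reported here. Sequences came from RefSeq (GRCh38.p14).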

Additional observations from a re-analysis of the deposited data

Results flagged for a closer look

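Among the 78 genes tested in the 5 lists, 20 differed in their H2O2 response between ATG7 KO and WT cells by the interaction test (edgeR, all 12 libraries, past the adjusted p, fold and FPKM thresholds), where 5.17% of 16856 genes did. Values are the log2 response of ATG7 KO cells minus that of WT cells. The response of ATG7 KO cells was smaller or negative for the factors KLF4 (-2.56), EGR1 (-2.45), XBP1 (-1.35), CEBPB (-1.08) and NFKB1 (-1.05). The same held for the DNA damage response genes PMAIP1 (-1.72) and GADD45A (-1.39), and for the ATF4 and CHOP targets DDIT4 (-1.96), TRIB3 (-1.21) and PPP1R15A (-1.08). It also held for the ligands INHBA (-1.53), AMH (-1.27), NRTN (-1.25), ARTN (-1.22) and GDNF (-1.10). The response of ATG7 KO cells was larger for NUPR1 (2.36), ASNS (1.80), ZMAT3 (1.43), VLDLR (1.41) and TGFB3 (1.09). NUPR1 had 5 to 12 reads and ASNS 3 to 10 reads per untreated ATG7 KO library, so both of these differences rest on few reads. A difference of responses depends on the untreated level as well as on the treated one. In treated ATG7 KO over treated WT cells, CEBPB (0.03) and GDNF (0.08) were not called, while KLF4 (-2.73) and EGR1 (-3.03) were lower. In the same comparison NUPR1 (-1.66) and ASNS (-1.38) were lower despite their larger responses. Leaving out 1 of the 12 libraries ended the difference of TGFB3 and of NRTN in 10 fits each, of ASNS in 8, of NFKB1 in 2 (untreated ATG7 KO replicates 2 and 3), and of GDNF (untreated WT replicate 3) and CEBPB (untreated ATG7 KO replicate 1) in 1. Groups of 3 are too small for a check of single outlying libraries.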

How the results depend on the processing

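The direction of GDF15 in ATG7 KO over WT cells with H2O2, and its adjusted p under 0.01, held in all 11 other settings (log2 fold change 0.91 to 1.13, highest adjusted p 0.000172) and with each library left out (0.90 to 1.01, highest adjusted p 1.31e-05). The fold threshold was passed with the gene length correction (1.13) and without treated WT replicate 2 (1.01). Without H2O2, the value ran from -0.31 without untreated WT replicate 3 to 0.13 without untreated WT replicate 1, where the sign turned, and no setting passed the adjusted p. The responses were smaller with limma on log2 FPKM plus 1, whether or not genes were limited to a mean above 1 FPKM (6.60 in WT and 7.61 in ATG7 KO cells), since the pseudocount is near the untreated level. With the gene length correction the difference of the responses was 1.37.

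The number of genes called from a list moved most with no fold threshold, where the adjusted p and the FPKM threshold were kept. With H2O2, ATG7 KO against WT cells then gave 14 factors, 16 DNA damage response genes, 16 ATF4 and CHOP targets and 5 ligands. In the WT response it gave 15 factors, 17 ATF4 and CHOP targets and 6 ligands, and in the ATG7 KO response 13 ATF4 and CHOP targets and 6 ligands. Among DNA damage response genes without H2O2, dropping the fold threshold, DESeq2 and the fit of all 12 libraries each called 2 genes in place of 1, and upper quartile scaling called 2 with H2O2 in place of 1. With single libraries left out, the count without H2O2 was 0 to 1 DNA damage response genes and 0 to 2 factors. The count of DNA damage response genes was 0 in every such fit but that without untreated ATG7 KO replicate 1, and the factor count was 0 without any 1 WT replicate or ATG7 KO replicate 2 and 1 without ATG7 KO replicate 1. With H2O2, DNA damage response genes numbered 1 to 2, the higher without treated WT replicate 3, and in the ATG7 KO response maturation and receptor genes numbered 2 to 4, the lowest without any one treated ATG7 KO replicate. The cause of these shifts was not tested.

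Same-numbered replicates did not deviate together (correlations of -0.04 to 0.1), so the numbers do not pair the samples. With the replicate number as a block, GDF15 had -0.08 without H2O2 and 0.96 with it in ATG7 KO over WT cells, 7.31 and 8.38 in the responses and 1.07 as their difference, and without H2O2 0 factors and 0 DNA damage response genes were called. Of single genes, 5 of 4954 values changed sign, all of them small. ATF4 without H2O2 was -0.017 with the gene length correction and -0.0825 without untreated ATG7 KO replicate 1 (range over left-out libraries -0.0825 to 0.24). DDIT3 without H2O2 was 0.14 without untreated ATG7 KO replicate 2 or 3 (range -0.62 to 0.14), and FURIN in the WT response was -0.0066 with no filter. Of the other values 4739 kept their call, 178 lost it and 32 gained it. In untreated cells, 39 to 72 reads per library limit the precision of GDF15.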
